A study of Mus musculus with 15 samples.

Results

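The genes described here are 34 interferon response and antigen presentation genes, measured in the striatum of mice whose sires or grandsires had received methamphetamine (METH), a stimulant drug that raises extracellular dopamine, or had received saline. They were chosen by gene symbol, with earlier results of these data known. Each of the 34 had a row in the deposited tables, out of 45777 features in all. Interferons are secreted proteins that cells release on sensing viral nucleic acid. They act through JAK kinases and STAT transcription factors to switch on the interferon-stimulated genes, which block viral replication, mark foreign RNA, cut proteins into peptides and load these peptides on MHC class I molecules at the cell surface. In the brain, microglia, other glia and endothelial cells are the best known responders, and most of these genes are kept at a low level in healthy tissue.

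RNA of the striatum, the input station of the basal ganglia, was sequenced from male, wild-type mice of the outbred ICR stock at 7 weeks of age. Their founders were ICR males that were 6 weeks old at the first injection; for 21 days they were given METH at 5 mg/kg or saline at a volume of 10 mL/kg under the skin, and were then mated with untreated females. F1 mice are sons of these males, and F2 mice are sons of F1 males and untreated females, so no mouse that was sequenced had been given the drug itself. The 4 groups were F1 METH (n = 3), F1 saline (n = 4), F2 METH (n = 4) and F2 saline (n = 4). Which litter or founder a mouse came from is not in the labels, and p-values below therefore measure only the spread between these animals. Some animal numbers in the column names recur in both generations of a lineage; the labels give no meaning for this, and the 15 mice were treated as unrelated.

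Library totals ran from 31563806 to 50573906 counts. Levels are given as CPM (counts per 1e6 library counts), scaled by the trimmed mean of M-values (TMM), and log2 fold changes are METH over saline. The labels name the cell type as neuronal, but the libraries held glial RNA as well as the markers of striatal projection neurons. The summed level of 10 striatal projection neuron markers was 5834 to 10759 CPM, and that of 9 oligodendrocyte markers was 6662 to 13141 CPM. Slc17a7, a glutamate transporter of cortical excitatory neurons, exceeded 100 CPM in F1 METH replicate 3, F1 saline replicates 1 and 3, F2 METH replicate 2 and F2 saline replicate 4. In bulk tissue, fewer cells of a type and less RNA per cell cannot be told apart.

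Many interferon-stimulated genes carry an interferon-stimulated response element (ISRE) near their start, which binds IRF proteins. Genes that answer interferon gamma often carry a gamma-activated site (GAS). RefSeq promoter windows (build GRCm38.p6, 250 bases before to 50 bases after a start) were at hand for 28 of the 34 members. The letters GAAANNGAAA, or TTTCNNTTTC on the other strand, were present in the windows of 14 of these 28 members (50%), against 1079 of 27025 genes in the whole table (3.993%). The letters TTCNNNGAA, which read the same on both strands, were present in 7 of the 28 members (25%), against 2582 of the 27025 genes (9.554%). A match is a description of the letters and does not show that a factor binds there. The 6 windows below are shown because their genes carry the values described later or differ in these letters, and each is written 5′ to 3′ on its gene's strand.
Ifit1, chr19:34640639-34640938, plus strand: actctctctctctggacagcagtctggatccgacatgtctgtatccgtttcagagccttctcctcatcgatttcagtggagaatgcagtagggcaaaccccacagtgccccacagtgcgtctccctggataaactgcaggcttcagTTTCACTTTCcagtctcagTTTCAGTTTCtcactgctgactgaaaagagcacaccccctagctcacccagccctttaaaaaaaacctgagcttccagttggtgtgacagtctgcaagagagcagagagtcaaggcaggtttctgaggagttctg
Isg15, chr4:156200769-156201068, minus strand: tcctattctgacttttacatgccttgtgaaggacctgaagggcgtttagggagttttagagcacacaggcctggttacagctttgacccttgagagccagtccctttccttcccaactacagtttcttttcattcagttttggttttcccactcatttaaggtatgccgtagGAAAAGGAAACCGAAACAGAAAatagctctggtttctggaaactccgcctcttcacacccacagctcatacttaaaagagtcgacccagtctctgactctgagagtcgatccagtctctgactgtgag
Ifih1, chr2:62646206-62646505, minus strand: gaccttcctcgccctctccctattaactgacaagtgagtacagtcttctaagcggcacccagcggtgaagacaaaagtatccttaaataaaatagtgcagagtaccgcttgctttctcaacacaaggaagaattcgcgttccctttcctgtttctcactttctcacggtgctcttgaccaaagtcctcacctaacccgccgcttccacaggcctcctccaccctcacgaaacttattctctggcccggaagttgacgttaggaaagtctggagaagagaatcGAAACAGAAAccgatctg
B2m, chr2:122147437-122147736, plus strand: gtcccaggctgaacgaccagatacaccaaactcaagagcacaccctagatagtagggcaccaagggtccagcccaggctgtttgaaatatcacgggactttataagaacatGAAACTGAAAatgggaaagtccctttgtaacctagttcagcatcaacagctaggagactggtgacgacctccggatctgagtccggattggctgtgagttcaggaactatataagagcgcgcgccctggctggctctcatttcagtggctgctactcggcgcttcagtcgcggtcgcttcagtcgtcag
Irf1, chr11:53769764-53770063, plus strand: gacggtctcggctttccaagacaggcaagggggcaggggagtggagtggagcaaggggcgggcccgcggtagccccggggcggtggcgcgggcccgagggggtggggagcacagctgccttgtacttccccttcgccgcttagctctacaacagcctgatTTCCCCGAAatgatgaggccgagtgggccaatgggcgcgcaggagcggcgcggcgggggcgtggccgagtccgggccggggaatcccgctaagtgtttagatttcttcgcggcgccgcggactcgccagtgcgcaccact
Psmb9, chr17:34187281-34187580, minus strand: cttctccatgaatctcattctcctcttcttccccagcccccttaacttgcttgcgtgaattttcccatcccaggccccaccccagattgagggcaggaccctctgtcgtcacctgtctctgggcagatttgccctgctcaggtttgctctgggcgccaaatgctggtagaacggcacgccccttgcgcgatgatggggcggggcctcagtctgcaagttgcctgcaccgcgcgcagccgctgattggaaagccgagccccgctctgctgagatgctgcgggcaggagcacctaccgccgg

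Capitals mark the ISRE letters in Ifit1, Isg15, Ifih1 and B2m and the GAS letters in Irf1; the Psmb9 window held neither. Ifit1 held 2 separate ISRE matches, and the last base of the nearer one lay 76 bases before the start. Isg15 held 3 overlapping matches, the nearest ending 57 bases before the start, and B2m held 1 match ending 130 bases before it. The Ifih1 match lay just past the annotated start. Psmb9 and Tap1 are neighbours that face away from each other with 225 bases between them, so their windows cover mostly the same DNA. Median log2 fold changes of METH over saline, described further on, were set out for members with and without the ISRE letters. With a match they were 0.34 in F1 (13 tested) and -0.069 in F2 (12 tested), and without one they were 0.25 in F1 (14 tested) and -0.10 in F2 (13 tested).

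Per unit of length, the members spanned a wide range of levels, given here as the deposited TPM (transcripts per 1e6), median over the 15 libraries. B2m, the light chain shared by all MHC class I molecules, was highest at 73.1 TPM (49.7 to 113), and the class I heavy chain H2-D1 followed at 38.97 TPM (33.2 to 72.95). The antiviral genes Ifi27 (18.5 TPM) and Ifitm3 (15.2 TPM) and the transcription factors Stat2 (14.4 TPM) and Irf9 (10.2 TPM) completed the 6 members at or above 10 TPM. A further 18 members lay between 1 and 10 TPM, from H2-K1 at 4.43 TPM down to Trim30a at 1.04 TPM. The other 10 lay under 1 TPM, with Cxcl10 at 0 in the median library. Between neighbours such as Psmb8 (3.36 TPM), Ifit3b (3.22 TPM) and Bst2 (3.20 TPM) the ranges over libraries overlapped almost fully.

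Transcripts of interferons themselves were barely detected at this depth. Of 10 interferon ligand genes, 9 had 0 reads in all 15 libraries, Ifnb1 and Ifng included, and Ifne had 6 reads in all.

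**Figure D1:**
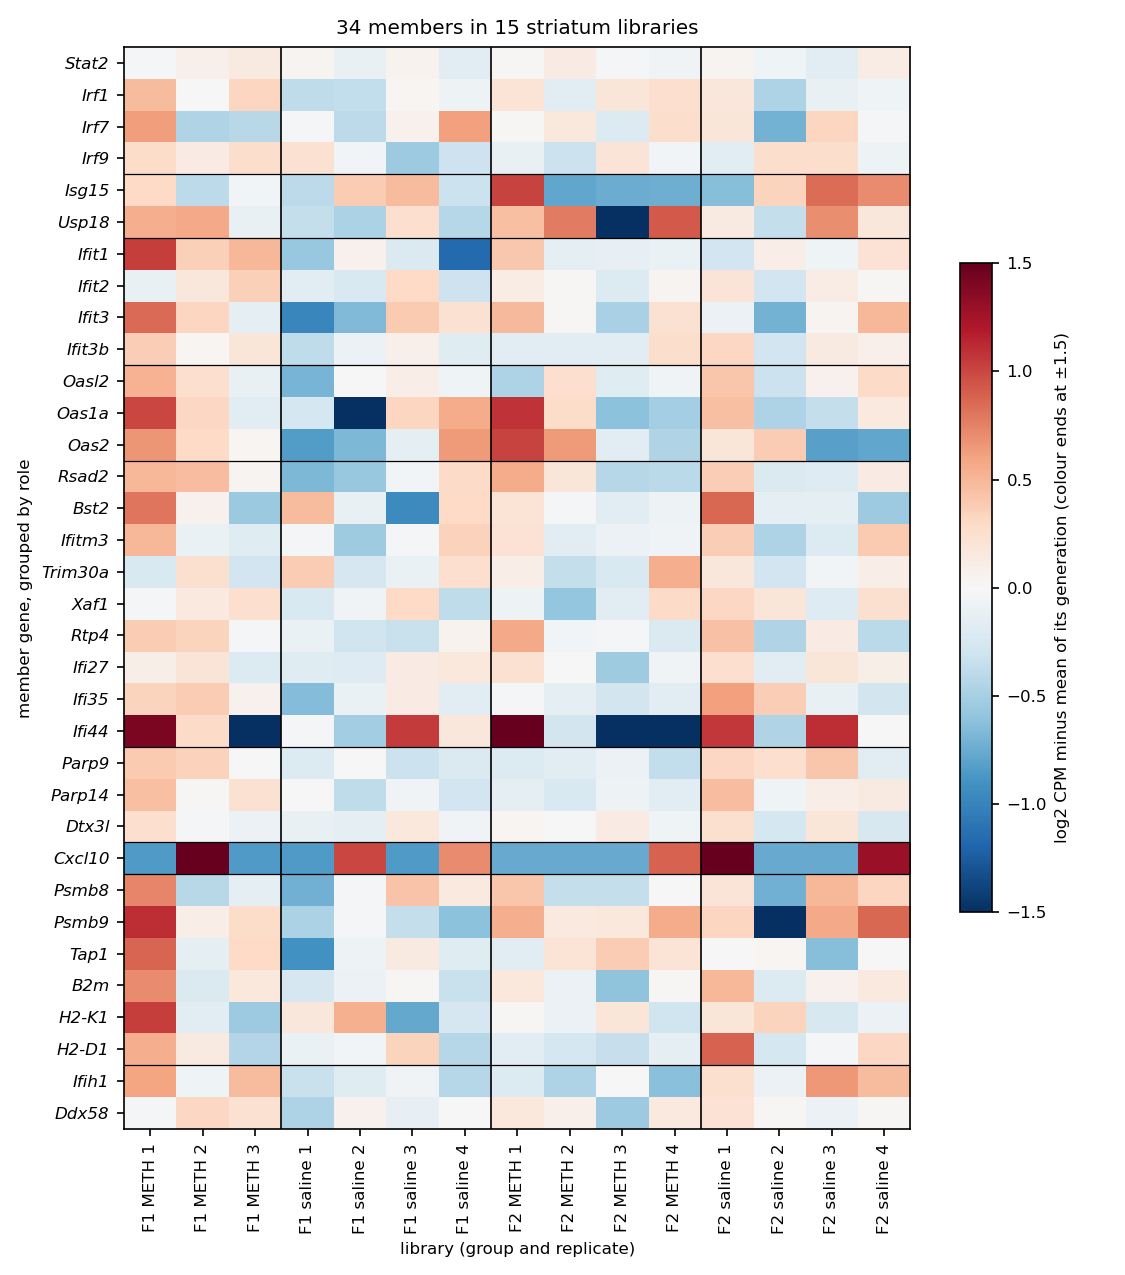
Level of each of the 34 members (rows, grouped by role) in each of the 15 libraries (columns), as log2 CPM minus the mean of that generation; red is above and blue below that mean, and the colour ends at 1.5 either way. The column of F1 METH replicate 1 is red in most rows, and this library was the highest of its generation for 24 of 33 tested members.

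The first comparison set sons of METH males against sons of saline males. Most members stood higher in F1 METH than in F1 saline: 30 of the 33 members tested had a positive log2 fold change, against 49.1% of all 18499 genes tested. The median of the members was 0.36, against -0.0035 over all genes, and the members ran from -0.16 for Trim30a to 1.12 for Ifit1. These contrasts are descriptions, since the members were chosen with earlier results of these data known. No member passed edgeR's quasi-likelihood test after Benjamini-Hochberg adjustment (adjusted p = 0.994 for all 33), and edgeR called 0% of all genes. In edgeR 774 genes (4.18%) had an unadjusted p under 0.05, while DESeq2 called 11 genes and limma-voom 3, none of them a member. At that unadjusted threshold 5 members were higher, Ifit1, Psmb9, Ifih1, Irf1 and Parp9, against 2.52% of all genes, and 0 were lower, against 1.66%. All METH libraries lay above all saline libraries for 4 members, Ifit1, Psmb9, Parp9 and Parp14, against 3.1% of all genes, and for 0 members did they lie below, against 2.29%.

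F1 METH replicate 1 stood apart from the other 2 libraries of its group. It was the highest of the 7 F1 libraries for 24 of the 33 members (72.7%), against 11.7% of all genes tested. The mean log2 CPM over 31 members was 1.85, 1.48 and 1.40 in F1 METH replicates 1 to 3, against 1.09, 1.22, 1.36 and 1.27 in F1 saline replicates 1 to 4. All 3 METH libraries lay above all saline libraries on this mean, but replicates 2 and 3 lay closer to the saline libraries than to replicate 1. Without replicate 1, 23 of 33 members had a positive log2 fold change, their median was 0.25, and 0 members had an unadjusted p under 0.05. The 7 members whose sign turned negative without it were Bst2, Dtx3l, H2-D1, H2-K1, Ifi44, Ifitm3 and Psmb8. Members at an unadjusted p under 0.05 numbered 3 without F1 METH replicate 3 or without F1 saline replicate 1. Leaving out the 3 F1 libraries with more than 100 CPM of Slc17a7, 31 of 33 members were higher, the median was 0.42 and 1 member had an unadjusted p under 0.05. For these and all other fits with libraries left out, the share of all genes at that threshold was not counted.

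The second comparison set grandsons of METH males against grandsons of saline males. Here the members were spread over both directions: 13 of the 31 tested were higher in F2 METH and 18 lower, against 49.5% of all 18093 genes that were higher. Their median log2 fold change was -0.082, against -0.0020 over all genes, with a range from -0.67 for Ifih1 to 0.65 for Oas2. No member passed edgeR's test (adjusted p of at least 0.960), and edgeR called 0% of all genes. In edgeR 863 genes (4.77%) had an unadjusted p under 0.05, while DESeq2 called 7 genes and limma-voom 1, none of them a member. At that unadjusted threshold 3 members were lower, Ifih1, H2-D1 and Parp9, against 2.66% of all genes, and 0 were higher, against 2.11%. All METH libraries lay below all saline libraries for 1 member, Parp14, against 1.16% of all genes, and for 0 members did they lie above, against 1.32%. Cxcl10 was under the count filter in both generations, and Oas1a and Ifi44 in F2.

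No F2 METH library stood apart on the mean over the members as F1 METH replicate 1 did. F2 METH replicate 1 was the highest of the 8 F2 libraries for 5 of 31 members (16.1%), against 11.3% of all genes. The mean over the 31 members was 1.29, 1.06, 0.87 and 1.11 in F2 METH replicates 1 to 4, against 1.36, 0.88, 1.19 and 1.20 in F2 saline replicates 1 to 4, so that the groups overlapped throughout. F2 saline replicate 1 was the highest of the 8 libraries for 12 of 31 members (38.7%), against 13.9% of all genes, and F2 saline replicate 2 the lowest for 10 (32.3%), against 13.2%. Without F2 saline replicate 1, 16 of 31 members were higher in F2 METH and the median was 0.0087. Without F2 saline replicate 2, 7 of the same 31 were higher and the median was -0.11. The 3 members at an unadjusted p under 0.05 became 1 without any single one of F2 METH replicates 2 and 4 and F2 saline replicates 1 and 3, and also 1 without the 2 libraries above 100 CPM of Slc17a7 (median -0.044).

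The difference between generations (F2 METH effect minus F1 METH effect) was tested as an interaction over all 15 libraries. It was negative for 30 of the 33 members tested and positive for 3, with a median of -0.38, against -0.00057 over all 19308 genes. No member passed (smallest adjusted p = 0.854), and edgeR called 1 gene that is not a member, 0.00518% of all. At an unadjusted p under 0.05, of 943 genes in all, 7 members were negative (Ifih1, Parp9, Parp14, Ifit1, Ifi35, B2m and Irf9), against 3.16% of all genes, and 0 were positive, against 1.72%. DESeq2 called 8 genes and limma-voom 0, with no member among them. Over the 31 members tested in both generations, 17 were higher in F1 METH and lower in F2 METH, 11 were higher in both, 2 were lower in F1 and higher in F2, and 1 was lower in both. Without F1 METH replicate 1 the difference was negative for 23 of 33 members, its median was -0.25, and 3 members had an unadjusted p under 0.05. The number of members with a positive difference was 10 without that library, 6 without F2 saline replicate 1, 5 without F1 saline replicate 2 and 1 without F1 saline replicate 4.

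**Figure D2:**
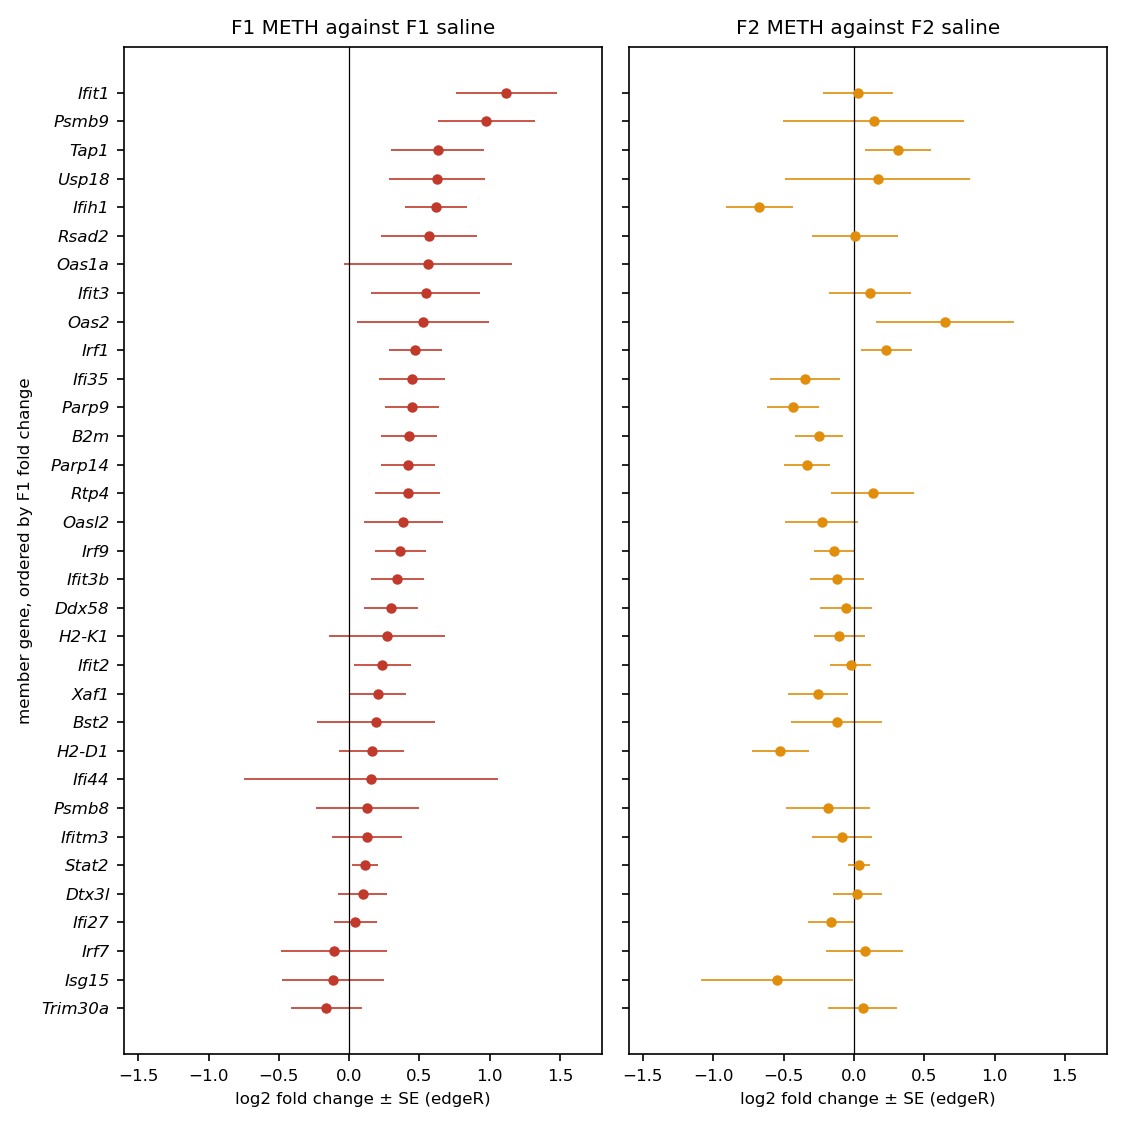
Log2 fold change of METH over saline (points, with bars of 1 SE from edgeR) for each tested member in F1 (left) and F2 (right), in the order of the F1 value. In F1, 30 of 33 points lie right of 0, from -0.16 to 1.12, while in F2 the points lie on both sides, from -0.67 to 0.65.

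Among the cytosolic sensors of viral RNA, Ifih1 had the smallest unadjusted p of any member for the difference between generations. Ifih1 (gene ID 71586, chromosome 2, 62595618 to 62646255) encodes MDA5, which binds long double-stranded RNA and signals through MAVS to induce interferon. In F1 it was at 3.31, 2.093 and 3.06 CPM in METH replicates 1 to 3, against 1.72, 1.93, 2.0999 and 1.60 CPM in saline replicates 1 to 4. METH replicates 1 and 3 lay above every saline library, and METH replicate 2 was level with the highest of them. Among grandsons it was at 1.23, 1.02, 1.43 and 0.899 CPM in METH replicates 1 to 4, against 1.68, 1.33, 2.26 and 1.99 CPM in saline replicates 1 to 4. METH replicate 3 lay above saline replicate 2, and the other METH libraries lay below all saline libraries. The log2 fold change was 0.62 in F1 (SE 0.22, edgeR unadjusted p = 0.0219) and -0.67 in F2 (SE 0.24, edgeR unadjusted p = 0.0176). The difference was -1.30 (SE 0.31, edgeR unadjusted p = 8.84e-04, adjusted p = 0.854), and without F1 METH replicate 1 the F1 value was 0.49. Ddx58, which encodes the sensor RIG-I for RNA with a free triphosphate end, was at 3.61 ± 0.442 CPM in F1 METH and 2.94 ± 0.469 CPM in F1 saline (SD, n = 3 and 4 libraries). That gave a log2 fold change of 0.30 in F1, beside -0.057 in F2.

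Of the transcription factors, Irf1 (gene ID 16362, chromosome 11, 53770014 to 53778374) stood out by its unadjusted p. IRF1 is induced by interferon gamma and drives class I antigen presentation genes. In F1 it was at 5.32, 3.80 and 4.80 CPM in METH replicates 1 to 3, against 2.92, 2.93, 3.89 and 3.62 CPM in saline replicates 1 to 4. METH replicate 2 lay just under saline replicate 3, so the groups overlapped by 1 library. The F2 values were 3.60, 2.77, 3.52 and 3.71 CPM in METH replicates 1 to 4, against 3.501, 2.24, 2.87 and 2.97 CPM in saline replicates 1 to 4. Its log2 fold change was 0.47 in F1 (SE 0.19, edgeR unadjusted p = 0.0360) and 0.23 in F2 (SE 0.18, edgeR unadjusted p = 0.230), the same sign in both generations. Irf9 and Stat2, whose proteins take part in an ISRE-binding complex, had lower log2 fold changes in F1. Irf9 was at 11.2 ± 0.664 CPM in F1 METH and 8.71 ± 2.02 CPM in F1 saline, a log2 fold change of 0.36, and of -0.14 in F2, with a difference of -0.52 (SE 0.23, edgeR unadjusted p = 0.0429). Stat2 was at 27.3 ± 1.52 CPM in F1 METH and 25.3 ± 2.00 CPM in F1 saline, a log2 fold change of 0.11, and of 0.037 in F2. Irf7, which amplifies type I interferon production, was at 1.13 ± 0.548 CPM in F1 METH and 1.21 ± 0.379 CPM in F1 saline, with a log2 fold change of -0.11, -0.57 without F1 METH replicate 1, and 0.077 in F2.

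The IFIT proteins bind viral RNA and block its translation. Their member genes lie close together on chromosome 19 in the order Ifit2, Ifit3, Ifit3b and Ifit1. The annotated span of a further gene, Ifit1bl1, overlaps those of Ifit3b and Ifit1, and how reads in the shared stretches were counted is not given. Ifit1 (gene ID 15957, chromosome 19, 34640889 to 34650009) had the largest log2 fold change of all members in F1. It was at 1.85, 1.14 and 1.27 CPM in F1 METH replicates 1 to 3, from 60, 44 and 43 reads, against 0.573, 0.921, 0.752 and 0.362 CPM in F1 saline replicates 1 to 4, from 21, 33, 29 and 14 reads. Every METH library lay above every saline library. F2 METH replicates 1 to 4 held 1.25, 0.843, 0.856 and 0.871 CPM, against 0.760, 1.00, 0.894 and 1.09 CPM in saline replicates 1 to 4. METH replicate 1 was the highest, and the other 3 METH libraries lay within the range of the saline libraries. On the log2 scale METH over saline was 1.12 in F1 (SE 0.36, edgeR unadjusted p = 0.0127), 0.88 without F1 METH replicate 1, and 0.030 in F2 (SE 0.25, edgeR unadjusted p = 0.905). The difference between generations was -1.09 (SE 0.41, edgeR unadjusted p = 0.0180). The other 3 had log2 fold changes of 0.54 (Ifit3), 0.34 (Ifit3b) and 0.24 (Ifit2) in F1, and of 0.11, -0.12 and -0.023 in F2. Ifit3 had 0.25 in F1 without F1 METH replicate 1. Ifit3 and Ifit3b are near-identical copies, so their separate levels are uncertain.

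The PARP9, PARP14 and DTX3L genes lie together on chromosome 16, where the annotated spans of Parp9 and Dtx3l overlap at their ends. PARP9 and DTX3L form an ADP-ribosylating ubiquitin ligase complex, and PARP14 is an ADP-ribosyltransferase. Parp9 (gene ID 80285, chromosome 16, 35938470 to 35972621) was at 2.84, 2.74 and 2.149 CPM in F1 METH replicates 1 to 3, against 1.86, 2.148, 1.71 and 1.84 CPM in F1 saline replicates 1 to 4. The METH libraries lay above the saline libraries, though METH replicate 3 and saline replicate 2 were level. For F2 it was 1.84, 1.90, 2.00 and 1.63 CPM in METH replicates 1 to 4, against 2.66, 2.54, 2.87 and 1.91 CPM in saline replicates 1 to 4. Saline replicate 4 fell among the METH libraries, and the other saline libraries lay above them. The log2 fold change was 0.45 in F1 (SE 0.19, edgeR unadjusted p = 0.0453) and -0.43 in F2 (SE 0.18, edgeR unadjusted p = 0.0376). The difference was -0.89 (SE 0.24, edgeR unadjusted p = 0.00194, adjusted p = 0.854).

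Parp14 (gene ID 547253, chromosome 16, 35831892 to 35871518) was the single member whose groups did not overlap in either generation, in opposite directions. In F1 it was at 3.62, 2.66 and 3.09 CPM in METH replicates 1 to 3, against 2.65, 2.01, 2.54 and 2.15 CPM in saline replicates 1 to 4. In F2 it was at 2.72, 2.57, 2.85 and 2.67 CPM in METH replicates 1 to 4, against 4.18, 2.89, 3.25 and 3.31 CPM in saline replicates 1 to 4. The gaps between the groups were narrow, with METH replicate 2 next to saline replicate 1 in F1, and METH replicate 3 next to saline replicate 2 in F2. Of all genes tested, 3.1% had every METH library above every saline library in F1, and 1.16% had every one below in F2. How many genes did both was not counted. The log2 fold change of Parp14 was 0.42 in F1 (SE 0.19, edgeR unadjusted p = 0.0609) and -0.33 in F2 (SE 0.16, edgeR unadjusted p = 0.0643). The difference was -0.76 (SE 0.23, edgeR unadjusted p = 0.00464, adjusted p = 0.898). Dtx3l, the third gene of the cluster, did not share these values: its log2 fold change was 0.095 in F1, -0.011 in F1 without F1 METH replicate 1, and 0.023 in F2. Reads in the stretch shared by Parp9 and Dtx3l cannot be told apart, since strand is not stated.

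**Figure D3:**
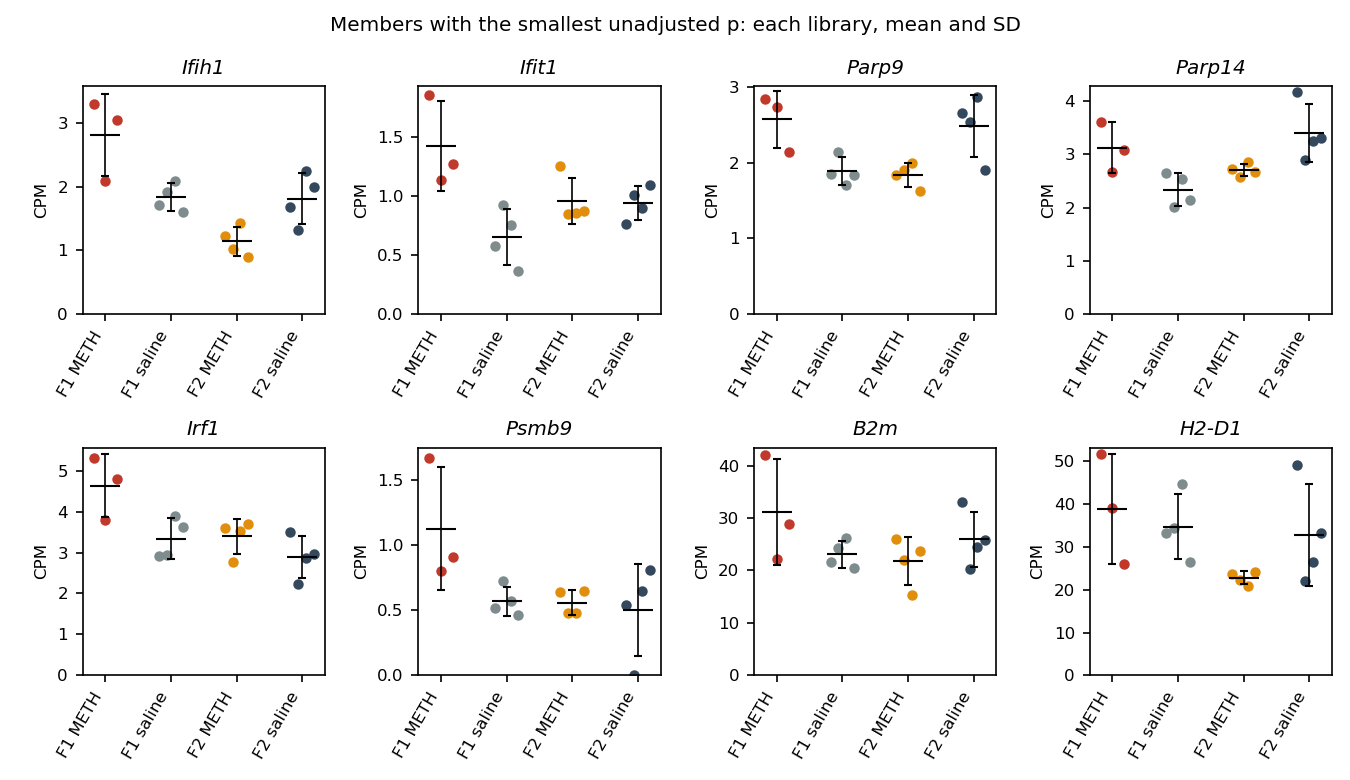
CPM of the 8 members with the smallest unadjusted p in a generation or for the difference, 1 point per library, with the group mean (long bar) and SD (whiskers); the groups run F1 METH, F1 saline, F2 METH, F2 saline and each axis starts at 0. Ifit1, Psmb9, Parp9 and Parp14 have all F1 METH points above the F1 saline points, and Parp14 has all F2 METH points, 2.57 to 2.85 CPM, below the F2 saline points, 2.89 to 4.18 CPM.

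MHC class I presentation was covered by 6 members along the route of a peptide, from the immunoproteasome subunits Psmb8 and Psmb9 through the transporter subunit Tap1 to B2m, H2-K1 and H2-D1. All 6 had a positive log2 fold change in F1 (median 0.35), and F1 METH replicate 1 was the highest library for all 6. Without that library 3 of 6 were higher and the median was 0.028. In F2, 2 of 6 were higher and 4 lower (median -0.15).

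Psmb9 (gene ID 16912, chromosome 17, 34182030 to 34187330) was at 1.67, 0.801 and 0.913 CPM in F1 METH replicates 1 to 3, from 54, 31 and 31 reads, against 0.518, 0.725, 0.570 and 0.466 CPM in F1 saline replicates 1 to 4, from 19, 26, 22 and 18 reads. Every METH library lay above every saline library, and METH replicate 1 lay well above the others. In F2 it was at 0.639, 0.476, 0.476 and 0.646 CPM in METH replicates 1 to 4, against 0.543, 0, 0.650 and 0.814 CPM in saline replicates 1 to 4. Saline replicate 2 had 0 reads, and the METH libraries lay within the range of the saline libraries. This gave a log2 fold change of 0.98 in F1 (SE 0.35, edgeR unadjusted p = 0.0209), 0.59 without F1 METH replicate 1, and 0.14 in F2 (SE 0.64, edgeR unadjusted p = 0.831). In F2 without saline replicate 2 it was -0.26. Tap1, which shares its upstream DNA with Psmb9, was at 1.97 ± 0.715 CPM in F1 METH and 1.27 ± 0.367 CPM in F1 saline, a log2 fold change of 0.63, and of 0.32 in F2. Psmb8, on the other side of Tap1, had 0.13 in F1 and -0.19 in F2. Leaving out F1 METH replicate 1, the F1 values were 0.32 for Tap1 and -0.30 for Psmb8.

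B2m (gene ID 12010, chromosome 2, 122147687 to 122153082) was at 42.1, 22.2 and 28.8 CPM in F1 METH replicates 1 to 3, against 21.6, 24.3, 26.2 and 20.5 CPM in F1 saline replicates 1 to 4. METH replicates 1 and 3 lay above the saline libraries and METH replicate 2 lay among them. F2 values were 26.1, 22.0, 15.4 and 23.7 CPM in METH replicates 1 to 4, against 33.0, 20.3, 24.5 and 25.8 CPM in saline replicates 1 to 4, and the groups overlapped. METH over saline, on the log2 scale, was 0.43 in F1 (SE 0.20, edgeR unadjusted p = 0.0595), 0.15 without F1 METH replicate 1, and -0.25 in F2 (SE 0.17, edgeR unadjusted p = 0.175). The difference was -0.68 (SE 0.28, edgeR unadjusted p = 0.0305).

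H2-D1 (gene ID 14964, chromosome 17, 35263094 to 35267497) was at 51.7, 39.0 and 26.1 CPM in F1 METH replicates 1 to 3, against 33.2, 34.5, 44.8 and 26.5 CPM in F1 saline replicates 1 to 4. The METH libraries spanned the whole range of the saline libraries. Grandsons had 23.7, 22.2, 20.9 and 24.2 CPM in METH replicates 1 to 4, against 49.2, 22.1, 26.4 and 33.2 CPM in saline replicates 1 to 4. Saline replicate 2 lay within the METH libraries and the other 3 lay above them, saline replicate 1 by the most. The log2 fold change was 0.16 in F1 (SE 0.23, edgeR unadjusted p = 0.504) and -0.52 in F2 (SE 0.20, edgeR unadjusted p = 0.0264). Without F1 METH replicate 1 the F1 value was -0.094, and without F2 saline replicate 1 the F2 value was -0.26. H2-K1 had a log2 fold change of 0.27 in F1, -0.35 in F1 without F1 METH replicate 1, and -0.10 in F2, and F1 METH replicate 1 held 10.3 CPM of it, against 2.56 to 7.28 CPM in the other 14 libraries. Class I heavy chains resemble each other closely, so the split of reads among them is uncertain.

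The oligoadenylate synthetases, which sense double-stranded RNA and activate RNase L, had few reads for Oas1a and Oas2, at 3 to 28 in any library, and 28 to 60 for Oasl2. Oasl2 was at 1.52 ± 0.339 CPM in F1 METH and 1.16 ± 0.271 CPM in F1 saline (SD, n = 3 and 4 libraries), a log2 fold change of 0.39, and of -0.23 in F2. Oas1a had 0.56 in F1 with an SE of 0.60, from 12 to 28 reads in METH libraries and 3 to 24 reads in saline libraries. Oas2 had 0.52 (SE 0.47) in F1 and 0.65 (SE 0.49) in F2, where it was the highest value of any member. The F1 values were 0.22 for Oasl2, 0.16 for Oas1a and 0.33 for Oas2 without F1 METH replicate 1. With these SEs neither value of Oas2 could be told from 0.

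ISG15 is a ubiquitin-like protein that is attached to other proteins, and USP18 removes it and dampens signalling at the interferon receptor. Isg15 was at 0.686 ± 0.175 CPM in F1 METH and 0.742 ± 0.245 CPM in F1 saline, a log2 fold change of -0.12, and of -0.31 without F1 METH replicate 1. In F2 it was at 0.879, 0.216, 0.222 and 0.225 CPM in METH replicates 1 to 4, against 0.244, 0.531, 0.772 and 0.702 CPM in saline replicates 1 to 4. METH replicate 1 was the highest of the 8 libraries, and the other 3 METH libraries were the lowest. The F2 log2 fold change was -0.55 (SE 0.54). Usp18 had a log2 fold change of 0.62 in F1 (SE 0.34) and 0.17 in F2 (SE 0.66), with 0 reads in F2 METH replicate 3.

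The other antiviral effectors comprised 9 members, of which 8 were higher in F1 METH (median 0.19). Without F1 METH replicate 1, 5 of 9 were higher and the median was 0.021. In F2, 3 of 8 were higher (median -0.10). Rsad2, which encodes viperin, an enzyme that makes a chain-terminating nucleotide, was at 0.998 ± 0.176 CPM in F1 METH and 0.669 ± 0.231 CPM in F1 saline, a log2 fold change of 0.57, and of 0.0074 in F2. Ifi35 had the largest difference of this group, with 0.45 in F1, -0.35 in F2 and a difference of -0.80 (SE 0.33, edgeR unadjusted p = 0.0288). Rtp4 had 0.42 in F1 and 0.13 in F2, and Xaf1, an activator of cell death, had 0.20 in F1 and -0.25 in F2. Bst2, encoding tetherin, which holds budding virus at the membrane, had 0.19 in F1 and -0.12 in F2, and Ifitm3, which blocks fusion of entering virus, had 0.12 in F1 and -0.082 in F2. The direction of both turned on 1 library: without F1 METH replicate 1 the F1 values were -0.24 for Bst2 and -0.12 for Ifitm3, and without F2 saline replicate 1 the F2 values were 0.27 and 0.038. Ifi27 had 0.043 in F1 and -0.16 in F2. Trim30a, a negative regulator of Toll-like receptor signalling in mice, had -0.16 in F1 and 0.063 in F2. Ifi44 ranged from 0 to 22 reads over the F1 METH libraries and from 5 to 20 over the F1 saline libraries.

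The chemokine Cxcl10, which draws T cells, was barely detected. It had 0, 10 and 0 reads in F1 METH replicates 1 to 3 and 0, 5, 0 and 4 reads in F1 saline replicates 1 to 4. In F2 it had 0, 0, 0 and 4 reads in METH replicates 1 to 4 and 8, 0, 0 and 6 reads in saline replicates 1 to 4. F1 METH replicate 1, the highest library for most other members, had no read of it, and no test was made.

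Genes of the same pathways outside the 34 were read from further lists, in each of which edgeR called 0 genes in either generation. The interferon-induced GTPases, which attack the vacuoles of intracellular parasites, had most of their high values in F1 METH replicate 1. Of 16 tested, 14 were higher in F1 METH (median 0.70), and F1 METH replicate 1 was the highest library for 15 of the 16. The mean log2 CPM over 15 of them was 2.23, 0.74 and 0.69 in F1 METH replicates 1 to 3, against 0.42 to 0.75 in the F1 saline libraries. Without F1 METH replicate 1, 10 of 16 were higher and the median was 0.24. In F2, 7 of 15 were higher (median -0.048). Gbp3 was at 8.19, 5.25 and 4.27 CPM in F1 METH replicates 1 to 3, against 2.51, 2.59, 2.90 and 3.31 CPM in F1 saline replicates 1 to 4. Its METH libraries all lay above its saline libraries, and without F1 METH replicate 1 its log2 fold change was 0.75 in place of 1.06. Gbp5 was at 6.34, 4.06 and 2.24 CPM in F1 METH, against 2.07, 1.90, 1.32 and 1.99 CPM in F1 saline, a log2 fold change of 1.20 with that library and 0.79 without it. In F2 Gbp6 had a log2 fold change of 0.83 (SE 0.24, edgeR unadjusted p = 0.00602, adjusted p = 0.960). Its F1 value was -0.16 (edgeR unadjusted p = 0.71).

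Some other class I heavy chain genes were also high in F1 METH replicate 1. H2-Q4 was at 12.1, 3.70 and 3.21 CPM in F1 METH replicates 1 to 3, against 2.07, 1.51, 2.0999 and 2.67 CPM in F1 saline replicates 1 to 4, and H2-Q6 at 4.48, 0.620 and 0.442 CPM, against 0.437, 0, 0.700 and 0.492 CPM. Without F1 METH replicate 1 the F1 log2 fold change of H2-Q4 was 0.73 in place of 1.59, and that of H2-Q6 was 0.38 in place of 2.15. Over this list 8 of 11 were higher in F1 METH (median 0.21), and 0 of 10 were higher in F2 METH (median -0.24). Nlrc5, the transactivator of class I genes, was at 1.82, 0.698 and 0.765 CPM in F1 METH replicates 1 to 3, against 0.382, 0.781, 0.389 and 0.337 CPM in F1 saline replicates 1 to 4. Of the other peptide-loading genes, Tap2 had 0.55 in F1, 0.47 in F1 without F1 METH replicate 1, and -0.12 in F2. Calr and Pdia3, chaperones of the endoplasmic reticulum, had -0.35 and -0.33 in F2. That list had 5 of 11 higher in F1 METH (median -0.046) and 1 of 11 in F2 METH (median -0.12).

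The lists upstream of the response, receptors with JAK-STAT genes and sensors with adaptors, had medians near 0, with genes on both sides. Of 9 interferon receptor and JAK-STAT genes, 6 were higher in F1 METH (median 0.032) and 5 in F2 METH (median 0.0020), over a range of -0.24 to 0.24 in F1 and -0.16 to 0.066 in F2. Of these 9, 3 were higher in F1 without F1 METH replicate 1 (median -0.033). Of 15 nucleic acid sensors and adaptors, 11 were higher in F1 METH (median 0.088) and 7 in F2 METH (median -0.0091), over a range of -0.092 to 0.48 in F1 and -0.43 to 0.35 in F2. Further interferon-stimulated genes were higher for 24 of 37 in F1 METH (median 0.14) and for 14 of 36 in F2 METH (median -0.031). Slfn5 had a log2 fold change of 0.45 in F1, 0.47 in F1 without F1 METH replicate 1, and -0.19 in F2. For Trim12c these values were 1.07, 0.77 and -0.28. Negative regulators had 5 of 10 higher in F1 METH (median 0.0087) and 7 of 10 in F2 METH (median 0.041). The constitutive proteasome subunits, for which the immunoproteasome subunits are exchanged, had 0 of 7 higher in F1 METH (median -0.079) and 0 of 7 in F2 METH (median -0.094). MHC class II genes had 2 of 7 higher in F1 METH (median -0.70) and 2 of 4 in F2 METH (median 0.026). Low levels lay under some of these values. H2-DMb1 was at 0.687 ± 0.153 CPM in F1 METH and 1.22 ± 0.334 CPM in F1 saline, a log2 fold change of -0.83 (SE 0.31). Cd74 was at 0.549 ± 0.115 CPM and 0.890 ± 0.417 CPM, a log2 fold change of -0.70 (SE 0.44).

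Markers of glia and endothelium stood mostly higher in F1 METH and lower in F2 METH, and their part in the members' values was not tested. Of the microglia markers, 11 of 12 were higher in F1 METH (median 0.17) and 0 of 12 in F2 METH (median -0.18). Their summed level was 411 to 567 CPM in F1 METH and 388 to 467 CPM in F1 saline, and 418 to 472 CPM in F2 METH and 393 to 598 CPM in F2 saline. Of the endothelial markers, 11 of 12 were higher in F1 METH (median 0.22) and 4 of 12 in F2 METH (median -0.098), with summed levels of 499 to 563 CPM in F1 METH, 406 to 472 CPM in F1 saline, 336 to 386 CPM in F2 METH and 380 to 424 CPM in F2 saline. Astrocyte markers were higher for 8 of 9 in F1 METH (median 0.19) and 0 of 9 in F2 METH (median -0.18), and oligodendrocyte markers for 9 of 9 in F1 METH (median 0.31) and 0 of 9 in F2 METH (median -0.14). Summed astrocyte markers were at 4214 to 5983 CPM in F1 METH, 3679 to 4255 CPM in F1 saline, 4255 to 4775 CPM in F2 METH and 4346 to 5676 CPM in F2 saline. Summed oligodendrocyte markers were at 7473 to 10351 CPM in F1 METH, 6662 to 8261 CPM in F1 saline, 7785 to 9798 CPM in F2 METH and 7018 to 13141 CPM in F2 saline. None of these markers passed edgeR's test after adjustment. At an unadjusted p under 0.05, 7 of 12 endothelial, 4 of 9 oligodendrocyte, 2 of 9 astrocyte and 0 of 12 microglia markers were higher in F1 METH, against 2.52% of all genes. In F2 METH, 4 of 9 astrocyte, 3 of 12 microglia, 1 of 12 endothelial and 0 of 9 oligodendrocyte markers were lower at that threshold, against 2.66% of all genes. Pericyte and fibroblast markers were higher for 9 of 10 in F1 METH (median 0.30, 3 at an unadjusted p under 0.05) and for 5 of 10 in F2 METH (median -0.053). Macrophage and monocyte markers were higher for 4 of 6 in F1 METH (median 0.23) and 2 of 5 in F2 METH (median -0.038), and cortical excitatory neuron markers for 1 of 8 in F1 METH (median -0.38) and 4 of 8 in F2 METH (median -0.044). Striatal projection neuron markers were higher for 9 of 10 in F1 METH (median 0.14) and 9 of 10 in F2 METH (median 0.053). Choroid plexus markers were higher for 2 of 5 in F1 METH (median -0.077) and 1 of 5 in F2 METH (median -0.10). Erythrocyte markers were higher for 0 of 5 in F1 METH (median -1.15) and 2 of 5 in F2 METH (median -0.089), with a sum of 123 to 168 CPM in F1 METH, 114 to 829 CPM in F1 saline, 56.9 to 157 CPM in F2 METH and 83.2 to 147 CPM in F2 saline.

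The libraries that stood apart differed in these markers. F1 METH replicate 1 was the highest F1 library for 24 of 33 members, against 11.7% of all genes tested. It was the highest for 0 of 12 microglia, 0 of 9 astrocyte, 0 of 9 oligodendrocyte and 1 of 12 endothelial markers. All F1 METH libraries lay above all F1 saline libraries on the mean log2 CPM of endothelial markers (4.9955 to 5.1479 against 4.7746 to 4.9318). The pericyte and fibroblast mean did so too (3.2023 to 3.363 against 2.9223 to 3.1976). The microglia, astrocyte and oligodendrocyte means overlapped between the F1 groups. F2 saline replicate 1 was the highest F2 library for 9 of 12 microglia markers, 5 of 9 astrocyte markers, 9 of 9 oligodendrocyte markers and 7 of 12 endothelial markers, as well as for 12 of 31 members. Of the 12 markers of T and NK cells, 10 were under 0.1 CPM on average. Cd3e, Cd8b1 and Gzmb had 0 reads in all 15 libraries. Trbc2 was at 1.02 ± 1.67 CPM in F1 METH and 0.887 ± 1.01 CPM in F1 saline (SD, n = 3 and 4 libraries). Cd4 made up nearly all of the summed level of these markers, 57.8 to 132 CPM. Of the B cell and neutrophil markers, Ly6g and Camp had 0 reads in all libraries, and the sum of all 9 was at most 1.65 CPM.

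**Figure D4:**
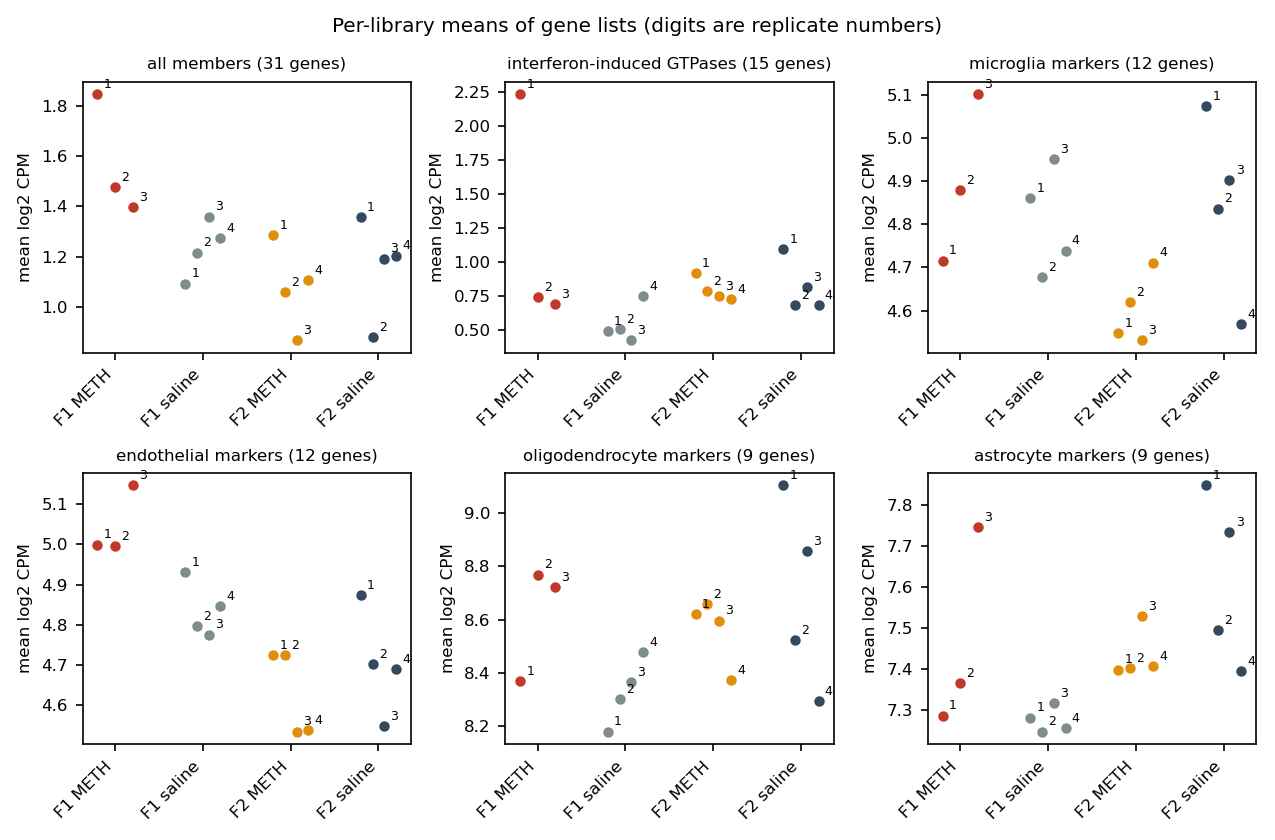
Mean log2 CPM of 6 gene lists in each library (points, numbered by replicate), with the groups in the order F1 METH, F1 saline, F2 METH, F2 saline; axes do not start at 0. F1 METH replicate 1 is the highest F1 point for the members (1.85) and the GTPases (2.23) but not for the glial and endothelial lists, where F2 saline replicate 1 is the highest F2 point.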

How the data were processed

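The submitters' processing notes name HISAT2 2.1.0, StringTie 2.1.3b, bcl2fastq 2.20.0, Trimmomatic and genome build mm10; how these were set and ordered, whether strand was used and how reads were counted are not given in the sources used. Per the file headers, each generation has 1 table with read counts, FPKM and TPM by feature. As deposited, the counts are whole numbers with unequal totals, so they served as raw counts; the authors' TPM served for levels between genes, and the authors' FPKM were not used. All 45 value columns were assigned to samples through their names.

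Counts were tested with edgeR 4.0.16 in R 4.3.3 (glmQLFit and glmQLFTest after TMM; filterByExpr, minimum count 10; Benjamini-Hochberg adjustment over all genes, threshold 0.05), within each generation, and as an interaction over 15 libraries for the difference. Since the 2 generations are separate tables, generation itself was not tested. Log2 CPM used a prior count of 2. The 34 members, the gene lists and the tests were chosen with earlier results of these data known. Every library value is given for the 5 members with the smallest unadjusted p in each generation and the 3 with the smallest for the difference; from each further list, at most the 2 genes with the smallest p per generation are named, and any other gene was named after its values were seen. Of the 21 replicate pairs, 0 agreed within sampling noise (chi-square per degree of freedom 16.15 to 65.81), so each library is 1 replicate. Scripts were tested on simulated data. Alternatives used DESeq2 1.42.0, limma 3.58.1 (voom), a mean CPM of at least 1, no filter, 1 fit of all 15 libraries, a replicate block, deposited TPM on the log2(TPM + 1) scale, a prior count of 0.5 and leaving out each library. Fits without libraries above 100 CPM of Slc17a7 were added after seeing the data. Of the 34 members, 13 overlap another annotated gene, and without strand their reads cannot be told apart. Positions are 1-based, from RefSeq's GRCm38.p6, the same assembly as mm10. Python 3.11.15 with matplotlib 3.10.9 drew the figures.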

Additional observations from a re-analysis of the deposited data

Results flagged for a closer look

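In 8 of 105 groups of 4 values examined, 1 library lay far from the other 3 of its group. For normally distributed values, chance alone marks about 1 group in 20. That rate need not hold for members with few reads, such as Cxcl10, Ifi44 and Isg15. In F2 METH replicate 1, Isg15 was at 0.879 CPM, against at most 0.2248 CPM in the other 3 F2 METH libraries. Ifit1 was at 1.252 CPM there, against at most 0.8709 CPM, and Ifi44 at 0.9056 CPM, against at most 0.1081 CPM. In F2 METH replicate 4, Ifit3b was at 2.838 CPM, against at most 2.097 CPM in the other 3, and Cxcl10 at 0.1124 CPM, where the other 3 had 0 reads. Ddx58 was lowest in F2 METH replicate 3 at 2.284 CPM, against at least 3.523 CPM. Tap1 was lowest in F2 saline replicate 3 at 0.8537 CPM, against at least 1.347 CPM. Usp18 was highest in F1 saline replicate 3 at 0.7778 CPM, against at most 0.4912 CPM. With 3 libraries, F1 METH was too small a group to be examined this way.

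For Parp14 every METH library lay above every saline library in F1 and below every saline library in F2. Of all genes tested, 3.1% did the first and 1.16% the second, and how many did both was not counted. The difference of the METH effects was -0.7582 on the log2 scale and did not pass edgeR's interaction test (adjusted p = 0.898).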

How the results depend on the processing

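No member passed the threshold under any alternative run. Over 15 other settings in F1, 23 of 486 member values changed sign (smallest adjusted p 0.4595); over 16 in F2, 36 of 490 (0.4581); and over 22 for the difference, 29 of 718 (0.1896). Genes called in F1 numbered 11 with DESeq2, 3 with limma-voom, 1 in a fit of all 15 libraries, 1 without libraries rich in Slc17a7, and 0 to 2 with 1 library left out, against 0. In F2 they numbered 7, 1, 0, 1 and 0 to 1, against 0. For the difference they numbered 8 with DESeq2 and 0 with limma-voom, a mean CPM of at least 1, the replicate block or no libraries rich in Slc17a7, and 0 to 2 with 1 library left out, against 1. The cause was not tested.

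Members higher in F2 METH numbered 8 with a mean CPM of at least 1 (25 members tested) and 8 to 16 with 1 library left out and the filter redone (7 to 16 over the same 31 members), against 13. Members with a positive difference between generations numbered 1 to 10 with 1 library left out, against 3, and 23 to 31 members were higher in F1 METH, against 30. With 1 library left out, the members' median ran from 0.25 to 0.46 (F1), -0.12 to 0.0087 (F2) and -0.50 to -0.25 (difference). F1 members at an unadjusted p under 0.05 numbered 0 to 7 with 1 library left out, 3 with a mean CPM of at least 1 and 1 without libraries rich in Slc17a7, against 5.

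With the replicate number as a block, 30 members were higher in F1 METH (median 0.34), 12 in F2 METH (median -0.044), the median difference was -0.44 and 0 genes were called. At an unadjusted p under 0.05 the block left 1 member for F1, 2 for F2 and 4 for their difference. The share of all genes at that threshold was not counted under the block or with libraries left out. The deviations of same-numbered libraries had correlations of -0.034, 0.059 and 0.40 in F1, and of -0.062 to 0.039 in F2. F1 METH replicate 3 was the 1 of 7 METH libraries that correlated best with its own number. Both F1 libraries of that number exceeded 100 CPM of Slc17a7 (386.22 CPM in METH and 518.79 CPM in saline). With 1 of 7 doing so, replicate numbers were not taken to pair METH with saline mice within a generation.

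At 31563806 to 50573906 counts per library, members such as Oas1a, Oas2, Ifi44 and Cxcl10 had few reads, and F1 had 3 METH libraries, which limits the precision of their values.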
